A study of Saccharomyces cerevisiae with 6 samples.

Results

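The 10 genes described here serve thiamine synthesis, uptake and their control in budding yeast: THI2, THI3, THI4, THI6, THI7, THI20, THI21, THI22, THI80 and PHO3. They were chosen by name from the deposited transcript models, where all 10 were found among 6931 loci. Each is the single gene of its locus, overlaps no other annotated gene, and passed the filter on low counts, so all 10 were among the 6171 loci tested.

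Thiamine (vitamin B1) is the precursor of thiamine pyrophosphate, the cofactor of pyruvate decarboxylase, transketolase and the 2-oxo acid dehydrogenases. Yeast builds it by joining a thiazole, made by Thi4, to a hydroxymethylpyrimidine, made by the Thi5 enzyme family, and it also takes thiamine up from the medium. The transcription factors Thi2 and Pdc2, together with the thiamine pyrophosphate-binding regulator Thi3, turn these genes on when thiamine is scarce, and yeast extract is a source of the vitamin.

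RNA of 6 samples, in 3 groups of 2, was sequenced from Saccharomyces cerevisiae of the W303 laboratory background. The groups were a wild-type control (WT), cells carrying a 2µ plasmid that expresses PSD1 from the GAL promoter (PSD1 overexpression), and cells with the same plasmid that also lack PDR3 (pdr3∆). PSD1 encodes the phosphatidylserine decarboxylase of the inner mitochondrial membrane and PDR3 an activator of drug resistance genes, and the series concerns the response to stress on mitochondrial import. All groups are labelled with growth in 1% yeast extract, 2% peptone and 2% raffinose. The 4 h induction with 2% galactose is given for every sample but marked as plus or minus, and the labels do not say whether WT was induced or carried an empty plasmid. The labels name no separate cultures for the 2 samples of each group, and the p-values therefore speak for the variation among the sequenced samples, which may be technical.

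Libraries held 10220872 to 12315448 counts. PSD1 stood at 1318.8 to 1494.8 CPM in WT (CPM is a locus's count relative to its library size, the latter scaled by TMM), 14465.8 to 16489 under PSD1 overexpression and 9070.9 to 9369.9 in pdr3∆. PDR3 had 3 and 9 counts in the pdr3∆ libraries against 724 and 798 in WT. GAL1, the galactokinase gene, stood at 18.8 to 42.1 CPM in WT and at 6008.5 to 8385.0 CPM in the other libraries, so both plasmid groups differ from WT in galactose gene expression as well as in PSD1, and these cannot be told apart in any difference from WT. In bulk RNA a change in every cell and a change in some of the cells cannot be told apart either.

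With PSD1 overexpression, 6 of the 10 thiamine genes were higher than in WT and 2 were lower. The genes that rose were THI4 (2.15-fold), the transporter gene THI7 (1.69-fold), the regulator gene THI2 (1.47-fold), THI20 (1.44-fold), THI6 (1.44-fold) and THI22 (1.23-fold). THI80, for the last step to thiamine pyrophosphate, and PHO3, an acid phosphatase of the cell surface, fell. THI3 and THI21 did not pass the test. In pdr3∆, set against the same WT libraries, the same 6 genes were higher and none was lower, against 19.6% and 19.5% of all tested loci.

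These calls are from edgeR's quasi-likelihood test at an adjusted p under 0.05 (Benjamini-Hochberg over all tested loci). At that threshold 27.9% of all tested loci were higher and 27.9% lower under PSD1 overexpression than in WT, so a call by itself is common here. For all 10 genes the libraries of the 2 groups did not overlap, as for 77.8% of all tested loci. The median log2 fold change of the 10 genes was 0.41, against 0.0060 over all tested loci. DESeq2 called 5 of them higher and 1 lower, against 1353 higher and 1428 lower of the 6171 tested loci.

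**Figure D1:**
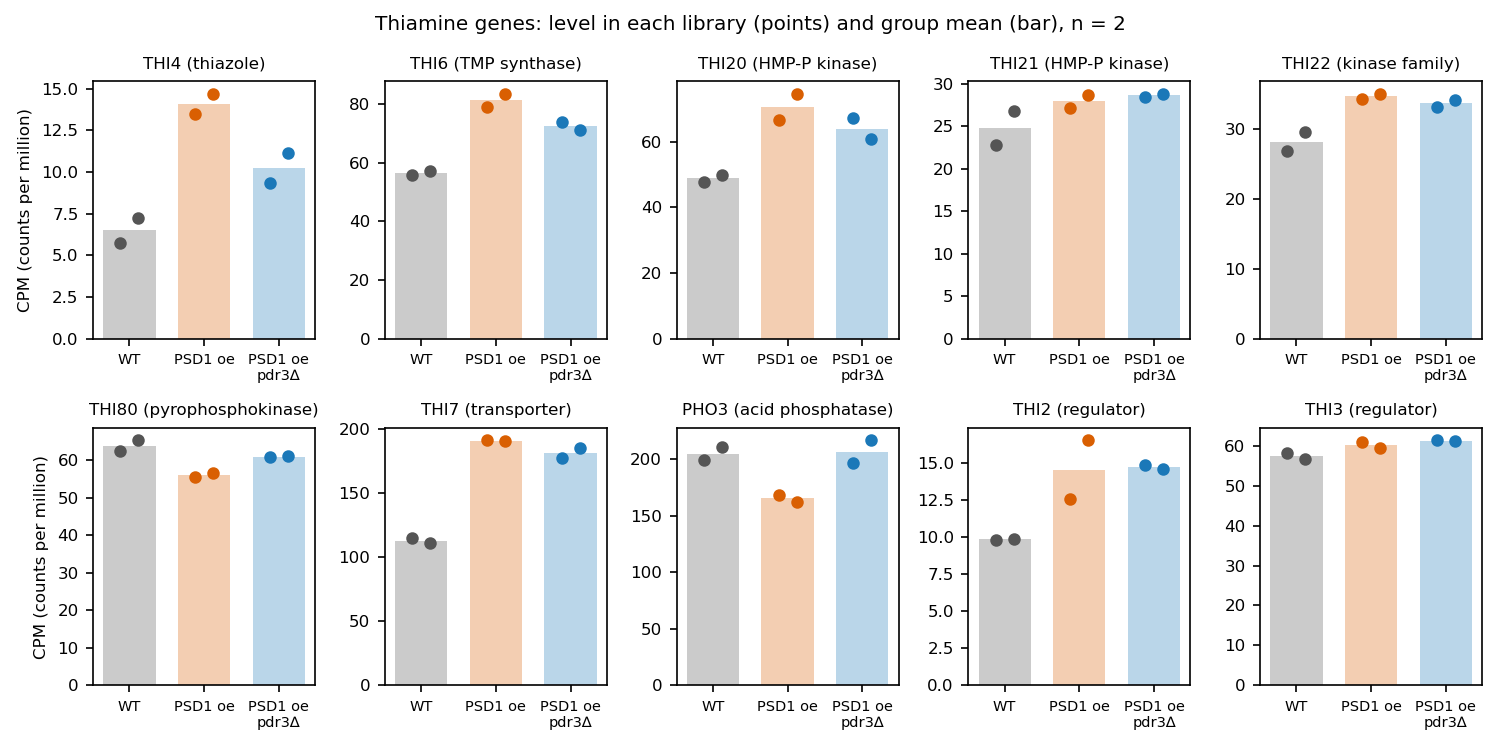
CPM of the 10 thiamine genes on axes that start at 0, with points for libraries and bars for means of 2. THI7 stands at 110.9 and 114.6 CPM in WT and between 177 and 191 CPM in the other libraries, while PHO3 is lowest under PSD1 overexpression.

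THI4 (YGR144W, chromosome VII, 780399 to 781379, plus strand) encodes the thiazole synthase, which gives up a sulfur atom of its own cysteine for each thiazole it makes. It was read at 66 and 89 counts in WT, 153 and 150 under PSD1 overexpression, and 113 and 128 in pdr3∆. These are 5.74 and 7.26 CPM, 13.5 and 14.7 CPM, and 9.36 and 11.2 CPM. The groups did not overlap, and pdr3∆ lay between the others. THI4 rose by 1.11 ± 0.16 on the log2 scale under PSD1 overexpression (log2 fold change ± SE, edgeR adjusted p = 0.000211). In pdr3∆ it was higher than in WT by 0.65 ± 0.16 (edgeR adjusted p = 0.0108), a call lost without WT library 1 (adjusted p = 0.0681) or pdr3∆ library 2 (0.0759). The step from PSD1 overexpression to pdr3∆ was -0.46 ± 0.15 and just missed the threshold (edgeR adjusted p = 0.052).

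THI4 made the largest change of the 10 genes under PSD1 overexpression, so the 300 bases before its start codon are shown (R64 build, plus strand, chrVII:780099-780398), from the reference strain and not from W303. They hold none of the 3 motifs searched on both strands: AGGGG, the stress response element bound by Msn2 and Msn4, the heat shock element TTCNNGAA, and TCCGCGGA, the element of Pdr1 and Pdr3.
THI4: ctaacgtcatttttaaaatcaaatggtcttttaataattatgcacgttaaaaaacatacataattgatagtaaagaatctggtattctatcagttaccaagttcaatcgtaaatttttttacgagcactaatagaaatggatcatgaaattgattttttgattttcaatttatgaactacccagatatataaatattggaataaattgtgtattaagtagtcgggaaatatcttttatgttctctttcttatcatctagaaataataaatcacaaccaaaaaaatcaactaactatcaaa

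THI6 (YPL214C, chromosome XVI, 148569 to 150191, minus strand) encodes the bifunctional enzyme that phosphorylates the thiazole and joins it to the pyrimidine, giving thiamine monophosphate. Its levels were 55.8 and 57.2 CPM in WT, 79.1 and 83.5 CPM under PSD1 overexpression, and 73.7 and 71.0 CPM in pdr3∆. No library of WT reached those of the other groups. THI6 rose by 0.52 ± 0.06 under PSD1 overexpression (edgeR adjusted p = 3.94e-05) and was higher than WT by 0.36 ± 0.06 in pdr3∆ (edgeR adjusted p = 0.000913).

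THI20, THI21 and THI22 form a family of paralogs. Thi20 and Thi21 phosphorylate hydroxymethylpyrimidine and its phosphate for the coupling step, and Thi22 resembles them but is not required for thiamine synthesis. THI20 (YOL055C, chromosome XV, 224420 to 226075, minus strand) stood at 47.7 and 49.9 CPM in WT, 66.6 and 74.6 CPM under PSD1 overexpression, and 67.1 and 60.7 CPM in pdr3∆. Both plasmid groups lay above WT and overlapped each other. THI20 rose by 0.53 ± 0.08 under PSD1 overexpression (edgeR adjusted p = 0.000228) and by 0.39 ± 0.08 in pdr3∆ (edgeR adjusted p = 0.00265), both against WT.

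THI21 (YPL258C, chromosome XVI, 53498 to 55153, minus strand) stood at 22.9 and 26.9 CPM in WT, 27.2 and 28.7 CPM under PSD1 overexpression, and 28.5 and 28.8 CPM in pdr3∆. Its WT libraries lay just below the others, at 0.17 ± 0.10 for PSD1 overexpression against WT (edgeR adjusted p = 0.185) and 0.20 ± 0.10 for pdr3∆ against WT (adjusted p = 0.13, or 0.0397 without WT library 2). THI22 (YPR121W, chromosome XVI, 778583 to 780301, plus strand) stood at 26.9 and 29.5 CPM in WT, 34.2 and 35.0 CPM under PSD1 overexpression, and 33.1 and 34.2 CPM in pdr3∆. THI22 was thus higher in every plasmid library than in WT, by 0.30 ± 0.08 (edgeR adjusted p = 0.0128) and 0.25 ± 0.08 (edgeR adjusted p = 0.0352). The first of these calls was lost with DESeq2 (adjusted p = 0.0644) and without WT library 1 (0.0696) or PSD1 overexpression library 2 (0.0623). The second was lost with DESeq2 (0.171), with only the 4 libraries compared (0.0551), and without WT library 1 (0.162), either PSD1 overexpression library (0.057 and 0.0554) or either pdr3∆ library (0.0862 and 0.151).

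On the FPKM scale, which is per length, the THI20 level was 2.24 and 2.00 times that of THI21 in WT, 2.62 and 2.75 times under PSD1 overexpression, and 2.52 and 2.25 times in pdr3∆. The ratio was highest in the PSD1 overexpression libraries, and the difference between the paralogs' changes was not tested. Their coding sequences are 82.1% identical for THI20 and THI21, 78.2% for THI20 and THI22, and 78.6% for THI21 and THI22 (R64 build). The longest run shared by THI20 and THI21 is 26 bases, and they share no window of 50 bases. The run of 26 bases is shown with capitals at the bases where THI22 differs (THI20 chrXV:224700-224725, minus strand; THI21 chrXVI:53778-53803, minus strand; THI22 chrXVI:779996-780021, plus strand).
THI20: gatgtttccagaagaggtaactggca
THI21: gatgtttccagaagaggtaactggca
THI22: gaCAtttccagaagaggAaactggca

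Upstream of their start codons the 3 paralogs also share a stretch of 15 letters, GGAAACCNTTAGAGC, which starts 171 bases before the start codon of THI20, 167 before that of THI21 and 93 before that of THI22. Of 5818 protein-coding genes with a window of 300 upstream bases, searched on both strands, 3 hold it (0.0516%), namely these. It is their longest shared run with at most 1 differing base, and the search for it was made after the sequences were seen. The shorter string TTAGAGC, part of the longer one, is in 2.2% of the windows, and among the 10 thiamine genes it is in THI2 besides the paralogs. Capitals mark the shared stretch in windows of 60 bases (THI20 chrXV:226195-226254, minus strand; THI21 chrXVI:55269-55328, minus strand; THI22 chrXVI:778482-778541, plus strand).
THI20: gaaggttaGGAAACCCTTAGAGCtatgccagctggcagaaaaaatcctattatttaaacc
THI21: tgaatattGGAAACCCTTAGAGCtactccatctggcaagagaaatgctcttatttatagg
THI22: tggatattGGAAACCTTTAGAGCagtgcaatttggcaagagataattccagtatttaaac

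THI80 (YOR143C, chromosome XV, 601383 to 602342, minus strand) encodes thiamine pyrophosphokinase, which makes the cofactor from thiamine, whether synthesised or imported. It stood at 62.4 and 65.3 CPM in WT, 55.4 and 56.5 CPM under PSD1 overexpression, and 60.7 and 61.2 CPM in pdr3∆. The PSD1 overexpression libraries were lowest and those of pdr3∆ lay between them and WT. THI80 fell by 0.19 ± 0.06 under PSD1 overexpression against WT (edgeR adjusted p = 0.0176). This small fall lost its call with DESeq2 (adjusted p = 0.12) and without WT library 2 (0.0883) or PSD1 overexpression library 1 (0.0886) or 2 (0.0627). The change from WT to pdr3∆ was -0.07 ± 0.06 (edgeR adjusted p = 0.387).

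THI7 (YLR237W, chromosome XII, 612367 to 614163, plus strand) encodes the plasma membrane thiamine transporter. With 1319 and 1359 counts in WT, 2176 and 1945 under PSD1 overexpression and 2141 and 2129 in pdr3∆, it gave 114.6 and 110.9 CPM, 191.4 and 190.6 CPM, and 177.4 and 185.6 CPM. WT stood apart from both other groups by far more than the spread within them. THI7 rose by 0.76 ± 0.05 under PSD1 overexpression (edgeR adjusted p = 8.12e-07) and by 0.69 ± 0.05 in pdr3∆ (edgeR adjusted p = 4.05e-06), both against WT. Between the plasmid groups it differed by -0.07 ± 0.05 (edgeR adjusted p = 0.31).

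Among the 10 genes, THI7 was the 1 with a motif match in the 300 upstream bases: TTCNNGAA, the core of the heat shock element, at 126 and at 86 bases before the start codon, in capitals here (R64 build, plus strand, chrXII:612067-612366). TTCNNGAA is in 13.1% of the 5818 upstream windows, AGGGG in 22.3% and TCCGCGGA in 0.189%, and neither of the last 2 is in any of the 10.
THI7: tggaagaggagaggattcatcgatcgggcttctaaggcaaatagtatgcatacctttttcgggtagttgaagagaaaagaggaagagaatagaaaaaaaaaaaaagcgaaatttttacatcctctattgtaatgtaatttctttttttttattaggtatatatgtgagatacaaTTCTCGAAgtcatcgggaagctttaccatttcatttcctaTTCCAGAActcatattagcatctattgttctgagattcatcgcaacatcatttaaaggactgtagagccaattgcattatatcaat

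NRT1 and THI72, whose products resemble Thi7, are 83.8% and 84.1% identical to THI7 in coding sequence, with longest shared runs of 52 and 74 bases. NRT1, the nicotinamide riboside transporter gene, stood at 43.4 and 39.1 CPM in WT and 45.3 and 45.0 CPM under PSD1 overexpression (log2 0.13 ± 0.08, edgeR adjusted p = 0.177). THI72 stood at 16.5 and 18.04 CPM in WT and 18.5 and 21.6 CPM under PSD1 overexpression (log2 0.21 ± 0.13, edgeR adjusted p = 0.196). On the FPKM scale the level of THI7 was 2.68 and 2.88 times that of NRT1 in WT and 4.27 and 4.26 times under PSD1 overexpression.

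PHO3 (YBR092C, chromosome II, 427698 to 429101, minus strand) encodes an acid phosphatase that frees thiamine from its phosphates outside the cell. It stood at 198.8 and 211.2 CPM in WT, 168.2 and 162.4 CPM under PSD1 overexpression, and 196.3 and 216.8 CPM in pdr3∆. The pdr3∆ libraries spanned those of WT, and both groups lay above PSD1 overexpression. PHO3 fell by 0.31 ± 0.06 under PSD1 overexpression against WT (edgeR adjusted p = 0.00146) and was higher by 0.32 ± 0.06 in pdr3∆ than under PSD1 overexpression (edgeR adjusted p = 0.00594). Leaving out PSD1 overexpression library 2 ended the second call (0.29, adjusted p = 0.0814). From WT to pdr3∆ the change was 0.01 ± 0.06 (edgeR adjusted p = 0.908).

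PHO3 lies next to its phosphate-regulated paralog PHO5 (YBR093C, chromosome II, 429548 to 430951). Their coding sequences are 86.5% identical, with a shared run of 98 bases and 8.71% of the windows of 50 bases in PHO3 also present in PHO5, so some reads could have been split between them. PHO5 stood at 46.1 and 48.9 CPM in WT, 34.0 and 35.0 CPM under PSD1 overexpression, and 45.6 and 29.6 CPM in pdr3∆. It was lower under PSD1 overexpression than in WT by the test (-0.46 ± 0.16, edgeR adjusted p = 0.0291), but not without WT library 2 (adjusted p = 0.0815) or PSD1 overexpression library 1 (0.142) or 2 (0.111), with DESeq2 (0.131) or with FPKM (0.0877 and 0.0887). Its pdr3∆ libraries lay far apart. Of the 3 other acid phosphatase genes listed, PHO5 was the 1 called under PSD1 overexpression against WT, where 55.8% of all tested loci were called. PHO11 and PHO12, at 11 to 43 counts and 99.7% identical, did not pass.

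THI2 (YBR240C, chromosome II, 700490 to 701842, minus strand) encodes the zinc finger activator of the thiamine genes. It had 113 and 121 counts in WT, 143 and 169 under PSD1 overexpression, and 180 and 168 in pdr3∆, or 9.82 and 9.88 CPM, 12.6 and 16.6 CPM, and 14.9 and 14.6 CPM. The groups with the plasmid lay above WT, and the PSD1 overexpression libraries were spread widely. THI2 rose by 0.56 ± 0.15 under PSD1 overexpression (edgeR adjusted p = 0.00925, or 0.36 with adjusted p = 0.0773 without PSD1 overexpression library 2) and by 0.59 ± 0.15 in pdr3∆ (edgeR adjusted p = 0.00998).

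THI3 (YDL080C, chromosome IV, 310642 to 312471, minus strand), the cofactor-binding regulator, stood at 58.2 and 56.7 CPM in WT, 61.2 and 59.6 CPM under PSD1 overexpression, and 61.6 and 61.4 CPM in pdr3∆. Both plasmid groups lay only slightly above WT, at 0.07 ± 0.06 under PSD1 overexpression (edgeR adjusted p = 0.304) and 0.10 ± 0.06 in pdr3∆ (edgeR adjusted p = 0.206), both against WT. PDC2 (YDR081C), the third regulator, stood at 111.6 and 116.9 CPM in WT and 101.8 and 103.5 CPM under PSD1 overexpression, and fell by 0.15 ± 0.05 (edgeR adjusted p = 0.0272). That call was lost with DESeq2 (0.126) and without WT library 2 (0.12) or PSD1 overexpression library 1 (0.128) or 2 (0.0921). PDC2 in pdr3∆ against WT stood at -0.07 ± 0.05 (edgeR adjusted p = 0.308).

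**Figure D2:**
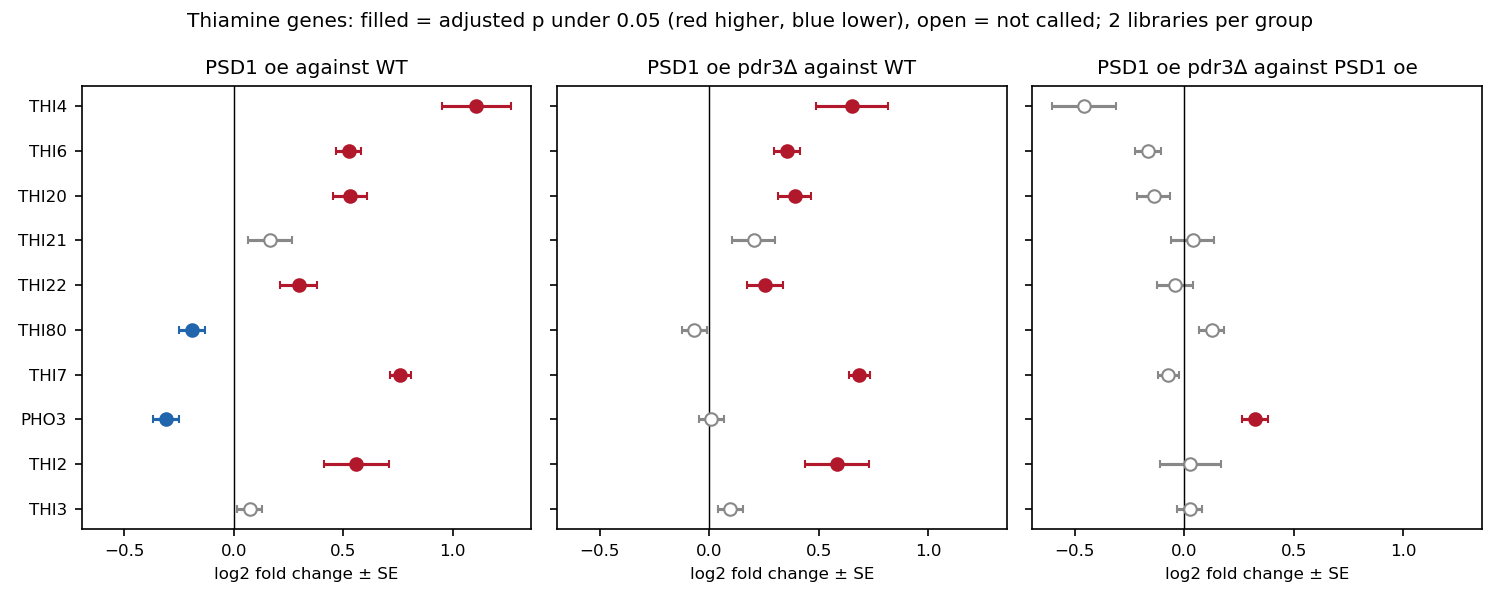
Log2 fold changes ± SE of the 10 genes in the 3 comparisons, with filled points at an adjusted p under 0.05. THI4, THI6, THI20, THI22, THI7 and THI2 are higher than WT in both plasmid groups, and PHO3 is the filled point between those groups.

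The third comparison set pdr3∆ against PSD1 overexpression with PDR3. PSD1 itself was lower in pdr3∆ (-0.75 ± 0.09, edgeR adjusted p = 0.000668), so the loss of PDR3 and the lower PSD1 level cannot be told apart in it. Of the 10 genes 1, PHO3, was higher and none was lower by edgeR. Of all tested loci edgeR called 20.9% in this comparison, 11.8% as higher and 9.12% as lower. At an unadjusted p under 0.05 the counts among the 10 genes were 1 higher and 2 lower, but no share of all loci was computed for that rule. DESeq2 also called 1 of the 10 higher and none lower, against 479 higher and 329 lower of the 6171 tested loci. The libraries of the 2 groups did not overlap for 7 of the 10 genes, against 63.5% of all tested loci. The median log2 fold change was -0.0089 for the 10 genes and -0.00094 over all loci. THI4 missed the threshold in the test as designed but passed it in 6 of the 15 other settings tried, with adjusted p from 0.0268 to 0.049.

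In pdr3∆ against WT, 6 of the 10 genes were higher and none was lower, against 19.6% and 19.5% of all tested loci. At an unadjusted p under 0.05 the counts were also 6 and 0, again without a share of all loci under that rule. DESeq2 called 5 higher and none lower. Libraries did not overlap for 9 of the 10, against 69.4% of all tested loci. The median of the 10 genes was 0.31, against 0.0053 over all loci. The 2 comparisons with WT share the WT libraries, so that they are not independent of each other.

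Levels of different genes were compared on the deposited FPKM scale. In WT the order by mean FPKM was PHO3 (160.5 ± 5.73, SD, n = 2), THI80 (84.5 ± 2.14), THI7 (80.1 ± 1.36), THI6 (35.5 ± 0.478), THI20 (32.3 ± 1.02), THI3 (31.4 ± 0.808), THI22 (18.1 ± 1.06), THI21 (15.3 ± 1.71), THI4 (8.25 ± 1.41) and THI2 (7.42 ± 0.0164). The libraries of THI20 and THI3 overlapped, as did those of THI4 and THI2, so neither pair is ordered. The median tested locus of a WT library stood at 72.1 FPKM, so that 3 of the 10 genes were above it, and the thiazole synthase gene was near the bottom, at ranks 5927 and 5829 of 6171.

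In PSD1 overexpression THI7 (135.0 ± 1.23 FPKM) stood above PHO3 (129.6 ± 3.31 FPKM), with no overlap of libraries. THI4, at 17.7 ± 1.01 FPKM, overlapped THI21, at 17.3 ± 0.642 FPKM. In pdr3∆ PHO3 was again first, at 161.6 ± 9.48 FPKM, before THI7 at 129.4 ± 4.20 FPKM. THI4, at 13.0 ± 1.63 FPKM, stood below THI21, at 17.6 ± 0.110 FPKM, and above THI2, at 11.1 ± 0.238 FPKM. In both plasmid groups THI7 also stood above THI80, which was at 73.5 ± 0.693 FPKM and 79.5 ± 0.481 FPKM, where in WT it stood below. The order was otherwise that of WT.

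**Figure D3:**
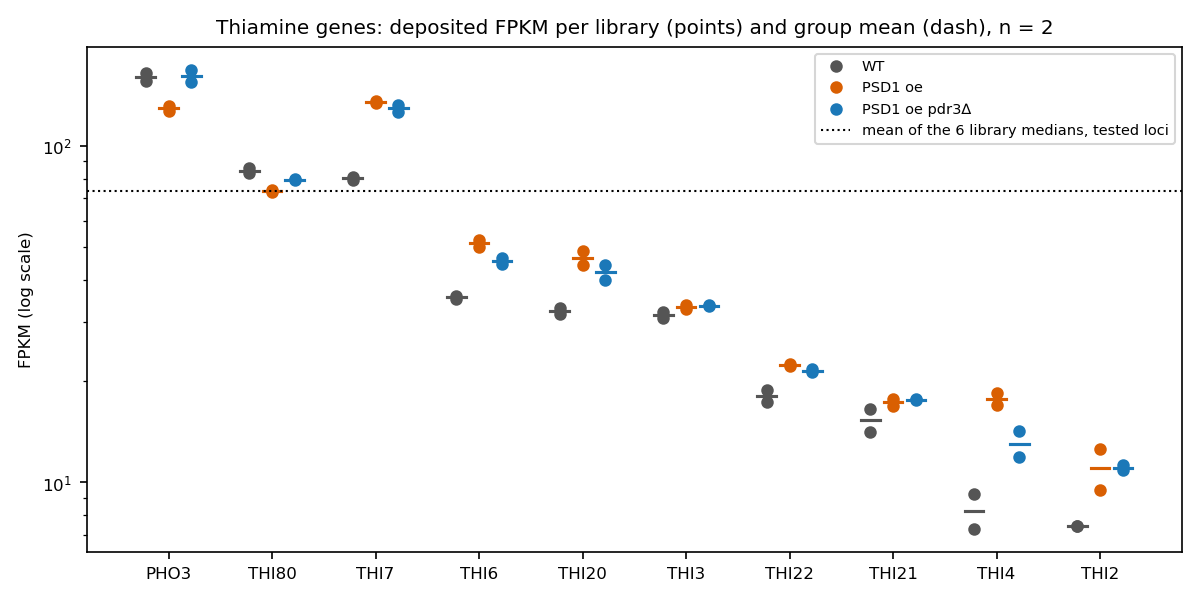
Deposited FPKM of the 10 genes on a log axis, ordered by their WT mean, with points for libraries and dashes for means of 2. PHO3, THI80 and THI7 lie near or above the dotted median of the tested loci, and THI4 moves from 8.25 FPKM in WT to 17.7 FPKM under PSD1 overexpression.

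The pyrimidine part of thiamine is made by THI5, THI11, THI12 and THI13, near-identical genes near chromosome ends that use pyridoxal phosphate and a histidine of the enzyme itself. Their coding sequences are 97.8% to 99.3% identical, so reads could not be placed safely and single members are uncertain. Summed, they had 65 and 85 counts in WT, 148 and 146 under PSD1 overexpression, and 110 and 116 in pdr3∆, or 5.65 and 6.94 CPM, 13.0 and 14.3 CPM, and 9.11 and 10.1 CPM. The sum did not overlap between the groups and was highest under PSD1 overexpression, and it was not tested. THI5, with 4 to 16 counts, did not pass the filter. Of the 3 members that did, all 3 were higher under PSD1 overexpression than in WT, against 27.9% of all tested loci. As reads may be exchanged among near-identical copies, these are not 3 separate measurements. THI12 rose by 1.37 ± 0.23 (edgeR adjusted p = 0.000569) and THI13 by 1.21 ± 0.25 (edgeR adjusted p = 0.00216). THI11 stood at 0.74 ± 0.28 (edgeR adjusted p = 0.0452), with p above the threshold in 11 of the other settings that tested it. At 16 to 35 counts it was not tested under the filter of at least 50 counts in 2 libraries. In pdr3∆ against WT 1 of the 3, THI13, was higher (0.93 ± 0.25, edgeR adjusted p = 0.0152, or 0.0932 with DESeq2, 0.0718 without WT library 1 and 0.108 without pdr3∆ library 1). Of all tested loci 19.6% were higher in that comparison. Between the plasmid groups, where 9.12% of all tested loci were lower in pdr3∆, 1 of the 3, THI12, was lower (-0.77 ± 0.21, edgeR adjusted p = 0.0282). DESeq2 gave no adjusted p for it, and the call was lost with FPKM (0.0587 and 0.0625) and without either PSD1 overexpression library (0.109 and 0.14) or pdr3∆ library 1 (0.171).

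Genes of vitamin B6, which supplies pyridoxal phosphate, were mixed. In PSD1 overexpression against WT 2 of the 6 listed were higher and 2 lower, against 27.9% and 27.9% of all tested loci. SNZ2 and SNZ3, which lie next to THI12 and THI5 and are 99.3% identical to each other, so that single values are uncertain, fell by 0.67 ± 0.11 (edgeR adjusted p = 0.000629) and 0.77 ± 0.15 (edgeR adjusted p = 0.00155). SNZ2 stood at 18.9 and 17.3 CPM in WT and 11.3 and 11.5 CPM under PSD1 overexpression. As counted, SNZ2 was lower and its neighbour THI12 higher in the same libraries. Reads of either gene could belong to a near-identical copy elsewhere, so opposite directions at this pair of neighbours are uncertain. SNZ1 and SNO1 passed the test at 0.86 ± 0.33 (edgeR adjusted p = 0.0467) and 0.52 ± 0.17 (edgeR adjusted p = 0.0257), but the WT libraries of SNZ1 held 415 and 1175 counts, and without WT library 1 their changes were 0.33 (adjusted p = 0.125) and 0.26 (adjusted p = 0.138). Both calls were also lost without PSD1 overexpression library 1 (0.166 and 0.0534) or 2 (0.145 and 0.159) and with FPKM (0.0986 and 0.0577 at a pseudocount of 1, 0.0991 and 0.0582 at 0.1), and that of SNZ1 with DESeq2 (0.238). In pdr3∆ against WT none of the 6 was higher by edgeR, against 19.6% of all tested loci, and none at an unadjusted p under 0.05 or by DESeq2. Lower there by edgeR were 2 of 6, SNZ2 and SNZ3, against 19.5% of all tested loci. Both of these calls were lost without WT library 1 (0.0705 and 0.1) or pdr3∆ library 2 (0.0706 and 0.162), that of SNZ2 with DESeq2 (0.0752) and that of SNZ3 with FPKM (0.0556 and 0.057). None of the 6 was called between the plasmid groups by edgeR, at an unadjusted p under 0.05 or by DESeq2. Of all tested loci edgeR called 20.9% there.

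Of 6 transporter genes related to thiamine or its partner vitamins, 1 was higher under PSD1 overexpression than in WT and none lower. The shares of all tested loci were 27.9% and 27.9%. THI73, a permease gene, was higher at 0.30 ± 0.11 (edgeR adjusted p = 0.0379), but not with DESeq2 (0.166) or without WT library 1 (0.151) or PSD1 overexpression library 1 (0.136) or 2 (0.0874). At an unadjusted p under 0.05 there were 2 higher and 0 lower, without a share of all loci under that rule. DESeq2 called 0 of 6, against 1353 higher and 1428 lower of the 6171 tested loci. In pdr3∆ against PSD1 overexpression 0 of 6 were called by edgeR, against 20.9% of all tested loci, and 0 at an unadjusted p under 0.05 or by DESeq2. Against WT pdr3∆ had 1 lower, against 19.5% of all tested loci. This was the vitamin B6 transporter gene TPN1 (-0.15 ± 0.05, edgeR adjusted p = 0.044), which lost its call in 10 of the 15 other settings. TPC1, the carrier that brings thiamine pyrophosphate into mitochondria, stood at 25.8 and 22.9 CPM in WT, 26.6 and 27.1 CPM under PSD1 overexpression, and 22.8 and 24.4 CPM in pdr3∆. It did not pass the test under PSD1 overexpression (0.14 ± 0.10, edgeR adjusted p = 0.232) or in pdr3∆ (-0.04 ± 0.10, edgeR adjusted p = 0.757).

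Of 11 genes for enzymes that use thiamine pyrophosphate, 4 were higher and 4 lower under PSD1 overexpression than in WT. Of all tested loci 27.9% were higher and 27.9% lower. The locus of the transketolase isozyme gene TKL2, which also holds YBR116C, rose by 3.83 ± 0.10 (edgeR adjusted p = 2.34e-09), from 27.0 and 33.8 CPM to 409.5 and 454.6 CPM. The main transketolase gene TKL1 fell by 0.40 ± 0.05 (edgeR adjusted p = 8.27e-05). The pyruvate decarboxylase genes PDC1 and PDC6 rose by 0.90 ± 0.09 (edgeR adjusted p = 2.14e-05) and 1.94 ± 0.23 (edgeR adjusted p = 6.31e-05). PDC1 and PDC5 are 87.2% identical in coding sequence, with a shared run of 65 bases. Of the windows of 50 bases in PDC1, 0.974% are also present in PDC5, so some reads could have been split between them. PDC1 stood at a mean of 2898.0 CPM in WT, 5422.9 CPM under PSD1 overexpression and 2957.8 CPM in pdr3∆. Whether reads of PDC1 add to the level of PDC5 was not tested. PDC5, the isozyme gene known to rise when thiamine is scarce, stood at 22.1 and 19.4 CPM in WT, 24.7 and 25.6 CPM under PSD1 overexpression, and 21.3 and 21.1 CPM in pdr3∆. Its higher level under PSD1 overexpression passed the test (0.28 ± 0.10, edgeR adjusted p = 0.035) but not with DESeq2 (0.15) or without WT library 2 (0.196) or PSD1 overexpression library 1 (0.0855) or 2 (0.128). KGD1, of the 2-oxoglutarate dehydrogenase, the decarboxylase gene ARO10 and ILV2, of branched amino acid synthesis, fell by 0.91 ± 0.06, 0.90 ± 0.06 and 0.32 ± 0.05 (edgeR adjusted p = 8.39e-07, 8.12e-07 and 0.000455). The pyruvate dehydrogenase genes PDA1 and PDB1 did not pass (0.10 ± 0.05 and -0.02 ± 0.04, edgeR adjusted p = 0.136 and 0.763). Against WT, pdr3∆ had 2 of 11 higher, TKL2 and PDC6, against 19.6% of all tested loci. It had 4 lower, ARO10, KGD1, TKL1 and ILV2, against 19.5% of all tested loci. ILV2 lost its call in 7 of the 15 other settings. Against PSD1 overexpression, where 11.8% of all tested loci were higher and 9.12% lower, pdr3∆ had ARO10 and KGD1 higher and PDC1 and TKL2 lower. Of these, KGD1 lost its call without PSD1 overexpression library 2 (0.0641), and TKL2 without that library (0.162), without pdr3∆ library 1 (0.0745) and with FPKM (0.0986 and 0.105).

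**Figure D4:**
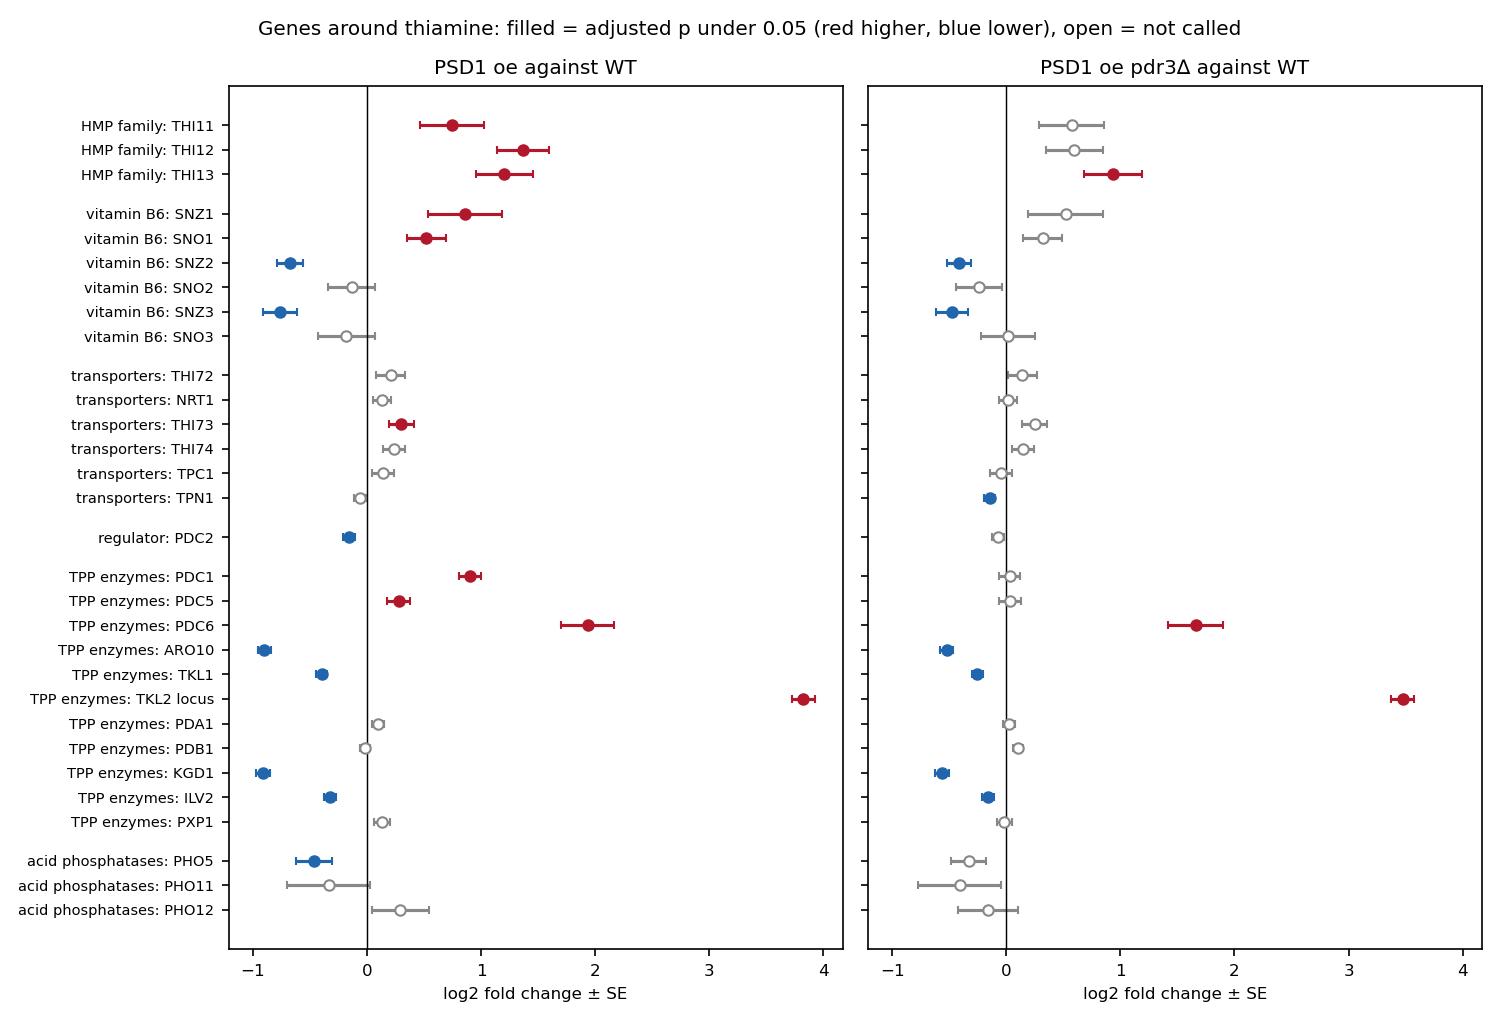
Log2 fold changes ± SE against WT of the tested genes around thiamine, grouped by role, with filled points at an adjusted p under 0.05. The TKL2 locus lies farthest out, at 3.83 and 3.48, and the hydroxymethylpyrimidine (HMP) genes lie to the right of 0 in both comparisons.

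The loci most like THI4 across the 6 libraries, by the root mean square difference of their log2 CPM after each was centred on its mean, were GCV1, of glycine breakdown (0.0956), YPL119C-A (0.102) and NRE1 (0.107). GCV1 stood at 52.9 and 65.5 CPM in WT, 131.4 and 149.5 CPM under PSD1 overexpression, and 102.1 and 106.3 CPM in pdr3∆. Its order of groups is like that of THI4, which follows from how it was chosen. Most like THI7 were HSC82, an Hsp90 gene (0.0326), RUP1 (0.0407) and PUT2, of proline breakdown (0.0424). HSC82 stood at 2374.3 and 2370.2 CPM in WT, 4080.2 and 4167.7 CPM under PSD1 overexpression, and 3824.1 and 3800.7 CPM in pdr3∆. The search ran over 5757 loci with a mean log2 CPM of at least 2. All listed genes were left out of it, so it could not find another thiamine gene.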

How the data were processed

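The authors deposited raw counts per locus, which are not normalized, and FPKM per locus, scaled for length and depth, with merged transcript models whose exon positions are used only for names, coordinates and sequence (these positions carry no other unit). The submitters' processing notes name Cufflinks and Cuffdiff 2.2.0, TopHat2 2.0.9, SAMtools 0.1.18, Bowtie2 2.1.0 and the build sacCer3 (R64), with no role or order. Neither the counting tool nor its strand setting is given in the sources used here. Differences in counts were tested by edgeR 4.0.16 under R 4.3.3 (TMM, edgeR's expression filter by group, quasi-likelihood test over all 6 libraries, 3 residual degrees of freedom). Each SE was obtained from a fold change (log2) and its F statistic, as the size of the former over the root of the latter. The test was checked on counts simulated from its own estimate of the spread, with few loci changed. Far more loci were called in the data, so that check does not cover scaling or error rates here. Total counts per library limit the precision of low genes. The members and lists were chosen with earlier results of these data known, and all 10 members are named. Genes outside the lists are named only by likeness, as the 3 nearest loci to THI4 and to THI7. Sequences are from the RefSeq R64 assembly, in which all genes listed have the start and end that the files give, with identities from Biopython 1.88 alignments. Alternatives were DESeq2 1.42.0, limma 3.58.1 on log2(FPKM + 1) and log2(FPKM + 0.1), other size factors and filters, only the 4 libraries compared, a replicate block, and each library left out.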

Additional observations from a re-analysis of the deposited data

How the results depend on the processing

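Of 450 recomputed fold changes of the 10 genes, 421 kept direction and side of the threshold, 18 lost a call, 7 gained one and 4 changed sign, none of them called in either setting. These were, in pdr3∆ against PSD1 overexpression, THI2 (-0.16 to 0.23 without single libraries) and THI21 (-0.0023 to 0.073), both below 0 without PSD1 overexpression library 1, and, in pdr3∆ against WT, PHO3 (-0.062 to 0.080), below 0 without pdr3∆ library 2 or WT library 1 (-0.032). The count of thiamine genes called in pdr3∆ against PSD1 overexpression was 1, and 2 with RLE size factors, with at least 50 counts in 2 libraries, with only the 4 libraries compared and with the replicate block, the added gene being THI4. Leaving out single libraries gave 0 to 2 there (0 without PSD1 overexpression library 2, 2 without either WT library), 5 to 8 for PSD1 overexpression against WT (5 without PSD1 overexpression library 2) and 4 to 7 for pdr3∆ against WT (4 without WT library 1 or pdr3∆ library 2). Loci called in pdr3∆ against PSD1 overexpression, 1291, were 808 with DESeq2, 825 and 829 with log2(FPKM + 1) and log2(FPKM + 0.1), and 255 to 1533 without single libraries (535 and 255 without PSD1 overexpression libraries 1 and 2, 788 and 621 without pdr3∆ libraries 1 and 2). Replicate numbers are not said to mark pairs, and deviations of same-numbered libraries correlated at 0.041, 0.19 and -0.020 across genes; with the replicate block 3491, 1393 and 2483 loci were called in the 3 comparisons, against 3443, 1291 and 2415. In both comparisons with WT, leaving out any single library also lowered the number of calls among all tested loci. The counts of thiamine genes called without single libraries were not set against that wider loss. With 2 libraries per group and counts near 100 for THI2 and THI4, changes in these genes are the least precise of the 10.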
